A study of Mus musculus with 12 samples.

Results

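DNA repair and damage signalling genes were followed in tumor-infiltrating CD11b+ myeloid cells of mice whose tumors were left unirradiated (Ctrl) or received ionizing radiation (IR). The 49 genes were given as a list of symbols that cover the damage kinases, the marking of double-strand breaks, homologous recombination, end joining, the Fanconi anemia pathway and its helicases, base excision, and mismatch and nucleotide excision repair. All 49 matched 1 gene each among the 54446 of the count tables, and all 49 passed the filter on low counts in every comparison. The tumors were grown in wild-type mice from MC38 cells, a colon carcinoma line of the mouse. These mice carried the floxed Ythdf2 alleles (Ythdf2 f/f) with no Cre, so every group had intact YTHDF2. IR was 1 local dose of 20 Gy given 3 days before the cells were collected, and Ctrl tumors were not irradiated. There were 3 pools per condition, every pool from 5 mice and described as a technical replicate by the study. The p-values therefore measure the spread between these libraries, and how much variation between mice it holds cannot be told. Sex and age are not given for each pool. A small share of each lysate, the Input, gave the abundance of transcripts, and an antibody against YTHDF2 recovered bound RNA from the remainder (IP), which gave 12 RNA immunoprecipitation sequencing (RIP-seq) libraries.

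The kinases ATM, ATR and DNA-PKcs start the response to DNA damage and pass the signal to the checkpoint kinases CHEK1 and CHEK2. Double-strand breaks are rejoined by end joining at any stage of the cell cycle, or copied from the sister chromatid by homologous recombination once DNA has been replicated, and many recombination and replication fork genes are known to be expressed mainly in dividing cells. YTHDF2 is a cytoplasmic reader of N6-methyladenosine (m6A) that speeds the decay of the mRNAs it binds. The ratio of IP to Input, written log2(IP/Input), is called the binding intensity here. None of the 12 libraries came from a control antibody or from cells without YTHDF2. RNA carried into the IP without YTHDF2 therefore cannot be told apart from bound RNA.

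Between 34445784 and 42382532 reads were counted on genes in the Input libraries and between 27852948 and 33882664 in the IP libraries. Of the uniquely aligned reads, the counting gave 24.6% to 27.0% to no gene feature in the Inputs. This share was 41.8% to 42.7% in the Ctrl IPs and 49.4% to 54.1% in the IR IPs. Whether such reads lay in introns or outside genes cannot be told from the counts. The part of this difference in the binding intensities was not tested. Levels are CPM, counts scaled to a common library total, with TMM factors over all 12 libraries, and 3 counts, the smallest number taken as detectable, were worth 0.0738 to 0.112 CPM. Myeloid markers were well detected, with Lyz2 at 2469 CPM and Itgam, which encodes CD11b, at 944 CPM in the Ctrl Inputs, apart from Arg1 at 0.27 CPM. In the IR Inputs Itgam was at 1719 CPM, and the neutrophil genes S100a8 and S100a9 rose from 2103 and 3519 CPM to 2905 and 4907 CPM. Of the 12 myeloid markers 6 were higher and 4 lower in the IR Inputs, and their sum was 9910 to 10726 CPM in the Ctrl Inputs and 13212 to 13946 CPM in the IR Inputs. The part of this in the changes of the repair genes was not tested. The 10 lymphoid markers summed to 13.9 to 25.4 CPM in the Inputs. Among 7 epithelial and tumor cell markers Krt19 was at 0 in every library, whereas Cdh1 was at 119 CPM in Ctrl and 88.4 CPM in IR. Fewer cells of a type and less RNA per cell cannot be told apart in these bulk samples.

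Levels were also expressed per kb of the merged exons of all annotated transcripts, a length that can exceed that of any 1 transcript. For Rnf8 it was 11703 bases against 5404 in its transcript with the longest coding sequence, so the order depends on this choice. On this scale Lig1, the DNA ligase of replication and long-patch repair, stood highest of the 49 genes in the Ctrl Inputs, at 27.0 CPM per kb. It was followed by the damage recognition gene Xpa at 22.4 CPM per kb and the ubiquitin ligase gene Rnf168 at 16.7 CPM per kb. Lowest were Rnf8, the ligase that acts before RNF168, at 0.447 CPM per kb and Xrcc5, which encodes the larger subunit of the Ku heterodimer, at 0.762 CPM per kb. Its partner Xrcc6 stood at 4.35 CPM per kb. The summed level of the 49 genes was 1441 to 1469 CPM in the Ctrl Inputs and 1331 CPM in each IR Input. It was 1949 to 1969 CPM in the Ctrl IPs and 1408 to 1427 CPM in the IR IPs, so that the groups did not overlap within either fraction. Abundant genes weigh most in this sum. From the Ctrl to the IR IPs the mean of Rif1 went from 414 to 197 CPM and that of Lig1 from 283 to 174 CPM. Compared gene by gene below, 9 of the 49 were lower in the IR IPs, 0 were higher and 40 were not called.

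To ask how transcript abundance differed after IR, the IR Inputs were compared with the Ctrl Inputs. Of the 49 genes, 25 were lower in IR, 3 were higher and 21 did not pass the threshold (edgeR's quasi-likelihood test, Benjamini-Hochberg adjusted p below 0.05). Among all 16914 genes tested 23.9% were lower and 21.0% were higher, and among 10645 expressed protein-coding genes 31.1% and 26.2%. The median log2 change was -0.33 over the 49 genes and 0.0072 over all genes tested. The genes that fell were spread unevenly over the roles. They were 6 of 8 damage kinases and partners, 5 of 8 break marking genes and 4 of 10 recombination genes. Among the rest, 4 of 5 Fanconi and helicase genes, 5 of 9 base excision genes and 1 of 5 end joining genes fell. None of 4 mismatch and nucleotide excision genes did. With all 12 libraries in 1 fit, 13 of the 49 genes were lower and 2 higher, beside 7.24% and 12.65% of the 20720 genes tested. That fit shares 1 estimate of the spread with the more variable IPs. Its scaling also moved the median change of all genes by 0.079 on the log2 scale. The calls lost there were those of Apex1, Atrip, Brca1, Chek1, Fancd2, Fanci, Mre11a, Prkdc, Tdp1, Trp53bp1, Wrn, Xrcc2 and Rad52, with edgeR adjusted p between 0.0676 and 0.482. Fold changes were scaled within the libraries compared, so the log2 ratio of the CPM printed here exceeds the fitted Input change by a median of 0.08.

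**Figure D1:**
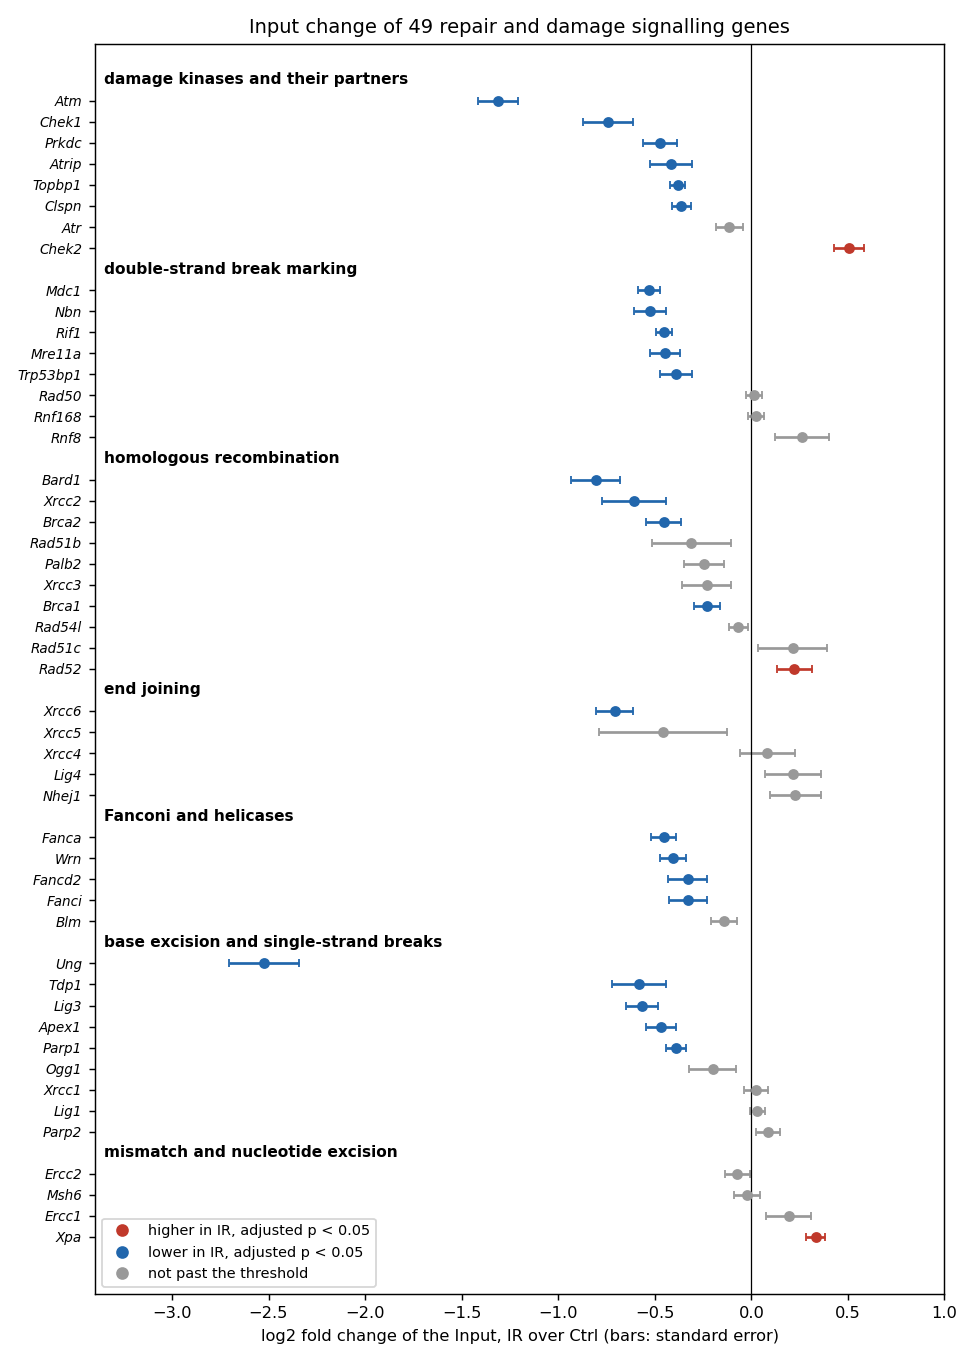
Log2 fold change of the Input, IR over Ctrl, for each of the 49 genes grouped by role, with the standard error as bars (3 pools per condition). Blue points are the 25 genes lower in IR and red points the 3 higher at an adjusted p below 0.05, and Ung (-2.52) and Atm (-1.31) lie farthest to the left.

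Among the damage kinases, Atm (chr9:53439149-53536740, minus strand, mm10), the apical kinase of the double-strand break response, fell most. Its Input level was 15.9, 15.9 and 15.02 CPM in the Ctrl pools and 6.995, 5.97 and 6.91 CPM in the IR pools. All IR pools lay below all Ctrl pools, and the fitted level in IR was 0.403 of that in Ctrl, a log2 change of -1.31 ± 0.10 (SE, edgeR adjusted p = 5.5e-11). Atr, the kinase activated by single-stranded DNA at stalled forks, stood at 31.1, 30.9 and 27.0 CPM in Ctrl and 29.1, 27.2 and 30.5 CPM in IR. These pools overlapped and the change was -0.11 ± 0.07 on the log2 scale (edgeR adjusted p = 0.198). Its binding partner Atrip fell by 0.42 on the log2 scale, although 16.0% of its exon length is shared with Trex1 on the same strand.

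Prkdc, which encodes the catalytic subunit of DNA-PK, was at 18.05, 20.6 and 20.1 CPM in Ctrl and 13.7, 16.3 and 14.8 CPM in IR. The IR pools were all lower, with a log2 change of -0.47 ± 0.09 (edgeR adjusted p = 6.37e-05) and an adjusted p of 0.0783 with all 12 libraries in 1 edgeR fit. The checkpoint kinase genes moved in opposite directions, although the fall of Chek1 did not pass the threshold in that fit (adjusted p = 0.225). Chek1, the effector of ATR in replicating cells, had 7.75, 7.22 and 8.43 CPM in Ctrl and 5.01, 5.09 and 4.68 CPM in IR, a log2 change of -0.74 ± 0.13 (edgeR adjusted p = 3.24e-05). Chek2, the effector of ATM, had 16.6, 19.8 and 17.8 CPM in Ctrl and 26.9, 26.2 and 28.1 CPM in IR, a log2 change of 0.50 ± 0.08 (edgeR adjusted p = 4.95e-06). Neither pair of groups overlapped. Topbp1 and Clspn, whose proteins help ATR to activate CHEK1, fell by 0.38 and 0.36 on the log2 scale.

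Of the genes that mark and process double-strand breaks, Mdc1, Nbn, Rif1, Mre11a and Trp53bp1 fell, with log2 changes between -0.53 and -0.39. MDC1 is the scaffold that spreads the break signal, NBN and MRE11 are subunits of the nuclease complex that senses broken ends, and RIF1 acts with TP53BP1 to keep ends from being resected. Rad50, which encodes the third subunit of that complex, did not pass the threshold, with a log2 change of 0.01 ± 0.04. Trp53bp1 had 20.3, 24.1 and 23.2 CPM in the Ctrl Inputs and 18.1, 16.6 and 19.7 CPM in the IR Inputs. The highest IR pool was just under the lowest Ctrl pool, and the log2 change was -0.39 ± 0.08 (edgeR adjusted p = 0.000395). With all 12 libraries in 1 edgeR fit the adjusted p was 0.0952. The ubiquitin ligase genes Rnf8 and Rnf168 had log2 changes of 0.26 ± 0.14 and 0.03 ± 0.04 and did not pass the threshold.

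In homologous recombination, Bard1, Xrcc2, Brca2 and Brca1 fell, Rad52 rose and the 5 genes Palb2, Rad51b, Rad51c, Rad54l and Xrcc3 did not pass the threshold. Xrcc2 fell by 0.61 on the log2 scale, and its change was -0.42 and not past the threshold without replicate 2. Bard1 (chr1:71027498-71103146, minus strand), which encodes the obligate partner of BRCA1, had 8.49, 10.2 and 10.3 CPM in Ctrl and 4.99, 6.25 and 6.32 CPM in IR. The groups did not overlap, and the log2 change was -0.81 ± 0.13 (edgeR adjusted p = 8.13e-06). Brca1 itself changed less, from 33.6, 37.1 and 33.6 CPM to 33.5, 28.4 and 32.1 CPM. The highest IR pool was close to the lowest Ctrl pools. Its log2 change of -0.23 ± 0.07 (edgeR adjusted p = 0.00672) was -0.12 and not past the threshold without replicate 2, nor was it past it with all 12 libraries in 1 edgeR fit (adjusted p = 0.409). Brca2, a recombination mediator gene, had 16.3, 15.3 and 14.9 CPM in Ctrl and 12.5, 11.97 and 11.4 CPM in IR. All of its IR pools were lower, with a log2 change of -0.45 ± 0.09 (edgeR adjusted p = 0.000187). Rad52, a strand annealing gene, rose from 13.7, 14.03 and 13.2 CPM to 15.9, 18.6 and 15.9 CPM. Its log2 change of 0.22 ± 0.09 was close to the threshold (edgeR adjusted p = 0.0466) and lost it with any 1 replicate left out (0.16 to 0.26).

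Among the end joining genes only Xrcc6, for the smaller Ku subunit, passed the threshold. It had 20.8, 19.1 and 18.4 CPM in Ctrl and 11.5, 14.3 and 11.9 CPM in IR. The groups did not overlap, and the log2 change was -0.71 ± 0.09 (edgeR adjusted p = 5.62e-07). Xrcc5 was measured with 26 to 92 reads per Input library, at 1.57, 2.08 and 2.19 CPM in Ctrl and 0.669, 2.54 and 1.31 CPM in IR. Its pools overlapped, and the log2 change of -0.46 ± 0.33 (edgeR adjusted p = 0.282) did not pass the threshold, whereas without replicate 2 it was -1.004 and past it. The ligation genes Lig4, Xrcc4 and Nhej1 had log2 changes of 0.21, 0.08 and 0.23 and did not pass the threshold. Of the Fanconi anemia and helicase genes, Fanca, Fancd2, Fanci and Wrn fell by 0.33 to 0.45 on the log2 scale, and Blm, the helicase mutated in Bloom syndrome, was at -0.14 ± 0.07 and did not pass the threshold. The call of Fancd2 was lost without replicate 3 (-0.20) and that of Fanci without replicate 1 or 3 (-0.28 and -0.32).

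Ung (chr5:114130386-114139323, plus strand), the glycosylase that removes uracil from DNA, showed the steepest fall of the 49 genes. Its Input level was 10.2, 7.99 and 10.7 CPM in Ctrl and 1.21, 1.82 and 2.28 CPM in IR. The groups were far apart, the fitted level in IR was 0.174 of that in Ctrl, and the log2 change was -2.52 ± 0.18 (edgeR adjusted p = 8.23e-12). Parp1, which senses nicked DNA, had 58.7, 60.1 and 60.04 CPM in Ctrl and 48.5, 45.4 and 50.1 CPM in IR, a log2 change of -0.39 ± 0.05 (edgeR adjusted p = 3.03e-07) with no overlap. Tdp1, which clears topoisomerase adducts, Lig3, the ligase of single-strand break repair, and Apex1, the abasic site endonuclease, fell by 0.58, 0.57 and 0.47 on the log2 scale. Ogg1, Xrcc1, Lig1 and Parp2 did not pass the threshold, with log2 changes between -0.20 and 0.09. The exons of Apex1 overlap Pip4p1 on the opposite strand over 61.7% of their length, and those of Lig3 overlap Rffl over 25.1%. Whether the counting used strand is not stated, so reads of these pairs could not be told apart.

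Xpa, which verifies bulky lesions in nucleotide excision repair, rose from 43.7, 40.5 and 43.3 CPM to 56.2, 56.7 and 56.6 CPM. All of its IR Inputs were higher, with a log2 change of 0.33 ± 0.05 (edgeR adjusted p = 4.95e-06). The mismatch recognition gene Msh6 and the nucleotide excision genes Ercc1, a nuclease subunit, and Ercc2, a helicase of the transcription factor complex TFIIH, had log2 changes of -0.02, 0.19 and -0.07 and did not pass the threshold.

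The other genes of these pathways were read from the same fit. Of 98 further repair genes tested, 41 were lower and 21 higher in IR, with a median log2 change of -0.13. By the rule used for naming, the largest rises were those of Mgmt, which removes alkyl groups from guanine, by 1.39 ± 0.11 on the log2 scale, and of Ercc5, a nuclease of nucleotide excision repair, by 1.20 ± 0.05. The largest falls were those of Exo1, an exonuclease of mismatch repair and end resection, with a log2 change of -0.90 ± 0.10, and of Wee1, a kinase that delays mitosis, with -0.88 ± 0.14. Proliferation markers and p53 target genes changed in the same libraries. Of 20 proliferation markers 18 were lower in IR and none was higher, with a median log2 change of -0.55, and Mki67 stood at 677 ± 10.1 CPM in Ctrl and 355 ± 5.6 CPM in IR (SD, n = 3). Of 14 p53 target genes 13 were higher and none was lower, with a median of 1.15, and Cdkn1a stood at 342 ± 5.3 CPM and 1062 ± 5.9 CPM (SD, n = 3). Summed proliferation markers were at 2209 to 2234 CPM in the Ctrl Inputs and 1646 to 1654 CPM in the IR Inputs. The part of this in the fall of the repair genes was not tested.

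**Figure D2:**
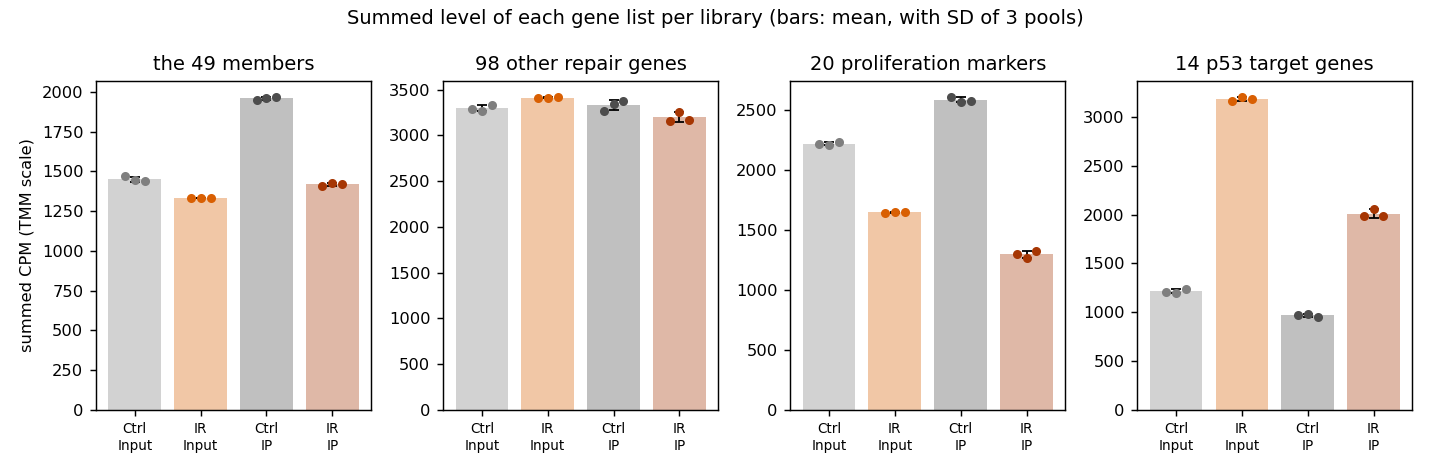
Summed CPM of 4 gene lists in each of the 12 libraries (points), with bars for the mean of 3 pools and error bars for the SD. The sum of the 49 genes was lower in IR than in Ctrl in both fractions, as was that of the proliferation markers. Abundant genes weigh most in such sums, and 40 of the 49 genes did not pass the threshold between the IPs. That of the p53 target genes was higher in IR. The 98 other repair genes summed to 3269 to 3331 CPM in the Ctrl Inputs and to 3407 to 3424 CPM in the IR Inputs. In the IPs they summed to 3268 to 3378 CPM in Ctrl and to 3163 to 3261 CPM in IR.

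The promoters of the members were searched because recombination and replication genes are known to share binding sites of E2F factors, which drive transcription at the start of DNA replication. RefSeq promoters (GRCm38.p6, the assembly also called mm10), windows of the same length around the start of transcription, were found for 42 of the 49 genes. The letters TTTCCCGC, TTTCGCGC, TTTGCCGC and TTTGGCGC were searched on both strands. Counted by gene, a match was present in 10 of 42 members (23.8%) and in 704 of the 27025 genes with a promoter (2.605%). It was present in 497 of the 10840 such genes tested in the Input comparison (4.585%). Among the other repair genes 3 of 75 had a match (4%), and among the proliferation markers 5 of 17 (29.4%). Counted by promoter, 744 of 32851 had a match (2.265%). The members with a match were Bard1, Brca2, Clspn, Mdc1, Topbp1 and Xrcc6, which fell in the Input, Lig1, Msh6 and Rad51c, which did not pass the threshold, and Chek2, which rose. Of the members with a promoter, these are 6 of 19 that fell (31.6%), 3 of 20 not past the threshold (15%) and 1 of 3 that rose (33.3%). A match is a run of letters and not a measured binding site. The promoters of the 3 matched genes with the largest Input falls are printed on the strand of the gene with the match in capitals, at chr1:71102923-71103222 for Bard1 (minus strand), chr15:82016119-82016418 for Xrcc6 (plus strand) and chr17:35841248-35841547 for Mdc1 (plus strand).
Bard1: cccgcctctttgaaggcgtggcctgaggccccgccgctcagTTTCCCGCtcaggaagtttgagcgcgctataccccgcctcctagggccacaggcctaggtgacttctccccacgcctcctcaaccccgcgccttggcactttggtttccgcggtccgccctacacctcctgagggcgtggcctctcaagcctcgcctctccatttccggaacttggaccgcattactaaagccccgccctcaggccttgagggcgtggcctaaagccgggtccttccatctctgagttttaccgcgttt
Xrcc6: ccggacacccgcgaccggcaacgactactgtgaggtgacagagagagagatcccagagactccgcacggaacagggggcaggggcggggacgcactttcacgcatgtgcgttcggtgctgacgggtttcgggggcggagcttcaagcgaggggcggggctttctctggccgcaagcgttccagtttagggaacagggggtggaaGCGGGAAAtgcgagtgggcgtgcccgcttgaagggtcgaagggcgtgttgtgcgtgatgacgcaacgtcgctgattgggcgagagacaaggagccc
Mdc1: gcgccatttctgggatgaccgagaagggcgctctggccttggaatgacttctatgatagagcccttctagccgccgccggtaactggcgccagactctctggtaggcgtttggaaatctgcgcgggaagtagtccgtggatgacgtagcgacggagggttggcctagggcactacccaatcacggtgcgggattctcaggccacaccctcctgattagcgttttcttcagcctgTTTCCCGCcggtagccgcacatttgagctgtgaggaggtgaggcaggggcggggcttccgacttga
The match begins 209 bases before the start of transcription in Bard1, 46 bases before it in Xrcc6 and 16 bases before it in Mdc1. In Bard1 and Mdc1 the capitals read TTTCCCGC, and in Xrcc6 they read GCGGGAAA, the same motif on the other strand.

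To ask which repair transcripts were recovered with the YTHDF2 antibody, each IP was compared with the Input of the same condition. In Ctrl, 16 of the 49 genes were higher in the IP than in the Input and 17 were lower, beside 34.1% and 34.6% of the 17416 genes tested. In IR, 11 were higher and 14 lower, beside 32.1% and 30.4% of 18650. The median log2(IP/Input) of the 49 genes was -0.18 in Ctrl and -0.17 in IR, and that of all genes 0.02 and 0.10. Among the expressed protein-coding genes 34.4% were higher and 47.6% lower in Ctrl, with a median of -0.195, and 26.3% were higher and 46.5% lower in IR, with a median of -0.27. Both directions occurred in most roles, so that partners in the same step of repair could lie on opposite sides. The Ctrl and IR comparisons share no library. The genes higher in both conditions, 7 of the 16 in Ctrl and 7 of the 11 in IR, were Lig1, Lig3, Lig4, Rad52, Rad54l, Rif1 and Rnf168. Those lower in both, 10 of the 17 and 10 of the 14, were Apex1, Brca1, Chek1, Fancd2, Mdc1, Parp1, Parp2, Rad50, Topbp1 and Wrn. These are 14.3% and 20.4% of the 49 genes, beside 23.3% higher in both and 28.1% lower in both among the 16757 genes tested in both conditions, and 23.1% and 40.1% among the expressed protein-coding genes. Of all genes called higher in Ctrl 67.6% were also higher in IR, and of those called lower 78.9% were also lower, against 43.8% and 58.8% of the members called. In IR the call of Mdc1 was lost without replicate 1 or 2 (-0.31 and -0.29) and that of Wrn without replicate 2 or 3 (-0.27 and -0.31). With library size only in place of TMM the Ctrl counts were 10 higher and 22 lower, beside 29.1% and 40.1% of all genes tested. The IR counts were then 15 higher and 10 lower, beside 36.3% and 26.3%.

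Rif1 (chr2:52072832-52122383, plus strand) had the highest binding intensity of the 49 genes in both conditions. In Ctrl it had 105, 104 and 100 CPM in the Inputs and 413, 432 and 396 CPM in the IPs. In IR it had 79.2, 80.3 and 78.9 CPM in the Inputs and 202, 196 and 193 CPM in the IPs. The IPs lay above the Inputs in every pool, with a 4.23-fold enrichment in Ctrl, a log2(IP/Input) of 2.08 ± 0.05 (edgeR adjusted p = 1.09e-16), and 2.57-fold in IR, 1.36 ± 0.05 (edgeR adjusted p = 2.74e-09). Rnf168, in the same pathway, had 73.8, 72.1 and 77.0 CPM in the Ctrl Inputs and 179, 193 and 199 CPM in the Ctrl IPs, a log2(IP/Input) of 1.43 ± 0.05 (edgeR adjusted p = 1.03e-13). Among the remaining break marking genes, Mdc1 and Rad50 were lower in the IP in both conditions, Mre11a was lower in Ctrl, Rnf8, which shares 13.2% of its exon length with Gm28043 on the same strand, was higher in Ctrl with a log2(IP/Input) of 0.66 ± 0.18, Trp53bp1 was higher in IR with 0.43 ± 0.12 (edgeR adjusted p = 0.0101), and Nbn did not pass the threshold in either.

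The 3 DNA ligase genes were higher in the IP than in the Input in both conditions. Lig4, the ligase of end joining, had 4.03, 5.01 and 4.65 CPM in the Ctrl Inputs and 11.7, 11.3 and 13.1 CPM in the Ctrl IPs. Its IPs lay above its Inputs in every pool, with a log2(IP/Input) of 1.47 ± 0.16 in Ctrl (edgeR adjusted p = 2.41e-07) and 0.84 ± 0.20 in IR (edgeR adjusted p = 0.00422). Lig1 had a log2(IP/Input) of 1.37 ± 0.05 in Ctrl and 0.54 ± 0.05 in IR, and Lig3 had 0.38 ± 0.09 and 0.54 ± 0.15. The Ctrl value of Lig3 was 0.197 with library size only and did not pass the threshold (edgeR adjusted p = 0.059). In recombination, Rad54l, a DNA translocase, had 66.9, 64.4 and 60.8 CPM in the Ctrl Inputs and 173, 151 and 165 CPM in the Ctrl IPs. In IR it had 67.5, 62.2 and 63.6 CPM in the Inputs and 109, 133 and 122 CPM in the IPs, with a log2(IP/Input) of 1.42 ± 0.06 in Ctrl and 0.96 ± 0.08 in IR (edgeR adjusted p = 1.46e-06). Its exons overlap Lrrc41 on the opposite strand over 15.4% of their length. Rad52 had 0.97 ± 0.10 and 0.45 ± 0.13. Palb2, the bridge between BRCA1 and BRCA2, was enriched in Ctrl (0.89 ± 0.12) and did not pass the threshold in IR, where its IP level was 20.3, 18.7 and 8.06 CPM. Without replicate 3 the IR value was 0.85 and past the threshold.

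On the other side, Chek1 was the most depleted of the 49 transcripts in both conditions. Its IP libraries held 26 to 84 reads each, at 1.25, 2.53 and 0.969 CPM in Ctrl and 0.895, 2.54 and 0.936 CPM in IR, below every Input given for it above. Its log2(IP/Input) was -2.21 ± 0.29 in Ctrl (edgeR adjusted p = 2.35e-06) and -1.70 ± 0.43 in IR (edgeR adjusted p = 0.00518), and the IR value was -1.42 and lost the threshold without replicate 3. Topbp1, which acts in the same branch, had 136, 126 and 132 CPM in the Ctrl Inputs and 56.5, 58.6 and 52.2 CPM in the Ctrl IPs. In IR it had 107, 106 and 107 CPM in the Inputs and 53.4, 43.1 and 52.2 CPM in the IPs. The IPs were lower in every pool, with a log2(IP/Input) of -1.16 ± 0.06 and -1.05 ± 0.09 (edgeR adjusted p = 1.03e-11 and 1.37e-06). Clspn was at 0.15 ± 0.06 in Ctrl (edgeR adjusted p = 0.0448), with overlapping pools on the common scale, and at 0.03 ± 0.09 in IR. With the replicate block the Ctrl call of Clspn was lost (adjusted p = 0.0685), and with library size only its value was -0.03.

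Apex1 had 20.8, 20.7 and 21.2 CPM in the Ctrl Inputs and 6.28, 6.12 and 7.19 CPM in the Ctrl IPs, a log2(IP/Input) of -1.61 ± 0.12 (edgeR adjusted p = 2.89e-09). In IR its Inputs were at 15.7, 15.2 and 17.0 CPM and its IPs at 8.98, 1.57 and 7.63 CPM. The IPs were lower in every pool, but pool 2 stood apart from the others, and the log2(IP/Input) of -1.35 ± 0.45 (edgeR adjusted p = 0.022) was not past the threshold without replicate 3 or with DESeq2. Parp1 had 31.7, 27.6 and 27.3 CPM in the Ctrl IPs and 25.9, 24.3 and 29.2 CPM in the IR IPs, below all of its Inputs, with a log2(IP/Input) of -0.97 ± 0.08 in Ctrl and -0.80 ± 0.10 in IR (edgeR adjusted p = 3.53e-09 and 4.7e-05). Brca1 had 20.9, 21.4 and 25.0 CPM in the Ctrl IPs and 27.0, 23.4 and 21.8 CPM in the IR IPs. Its log2(IP/Input) was -0.56 ± 0.09 in Ctrl (edgeR adjusted p = 4.61e-05) and -0.33 ± 0.12 in IR (edgeR adjusted p = 0.0346), and the IR call was lost with any 1 replicate left out.

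Of the apical kinases, Atr and Prkdc lay near the Input level. Atr had 32.0, 32.2 and 36.3 CPM in the Ctrl IPs and 17.8, 29.5 and 30.6 CPM in the IR IPs. It was above its Inputs in Ctrl by 0.25 ± 0.09 on the log2 scale (edgeR adjusted p = 0.0205), a call that was lost with library size only (0.07), and it was at -0.10 ± 0.18 in IR, where pool 1 was far below the other two. Prkdc had 15.1, 21.8 and 14.4 CPM in the Ctrl IPs and 15.4, 17.0 and 13.9 CPM in the IR IPs, which overlapped its Inputs, and its log2(IP/Input) of -0.12 ± 0.14 and 0.10 ± 0.15 did not pass the threshold. The Ku genes did not pass the threshold in either condition. Xrcc6 had 19.5, 21.7 and 17.6 CPM in the Ctrl IPs and 13.9, 7.70 and 10.8 CPM in the IR IPs, with a log2(IP/Input) of 0.09 ± 0.11 and -0.17 ± 0.22. Xrcc5 had 17 to 73 reads per IP library and 2.34, 1.31 and 0.894 CPM in Ctrl and 0.587, 0.513 and 2.04 CPM in IR, with a log2(IP/Input) of -0.28 ± 0.39 and -0.47 ± 0.70. All of these overlapped between fractions.

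The change of binding intensity with IR was tested as the interaction of fraction and condition over all 12 libraries. It was higher in IR for 5 of the 49 genes, Ung, Atm, Brca2, Wrn and Trp53bp1, and lower for 8, Lig1, Rnf168, Rif1, Xpa, Chek2, Rad52, Ercc2 and Rad54l. Of all 20720 genes tested, 6.28% were higher and 13.9% were lower, and the median change was -0.05 over the 49 genes and -0.08 over all. Among the expressed protein-coding genes 8.74% were higher and 24.2% lower, with a median of -0.16. This split depends on the scaling. With library size only, which moved the median of all genes by 0.31 on the log2 scale, 14 of the 49 genes were higher and 3 lower, while 13.8% of all genes were higher and 4.23% lower. The Input change, the 2 binding intensities and their difference share libraries, so their values are given side by side below and do not support each other.

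**Figure D3:**
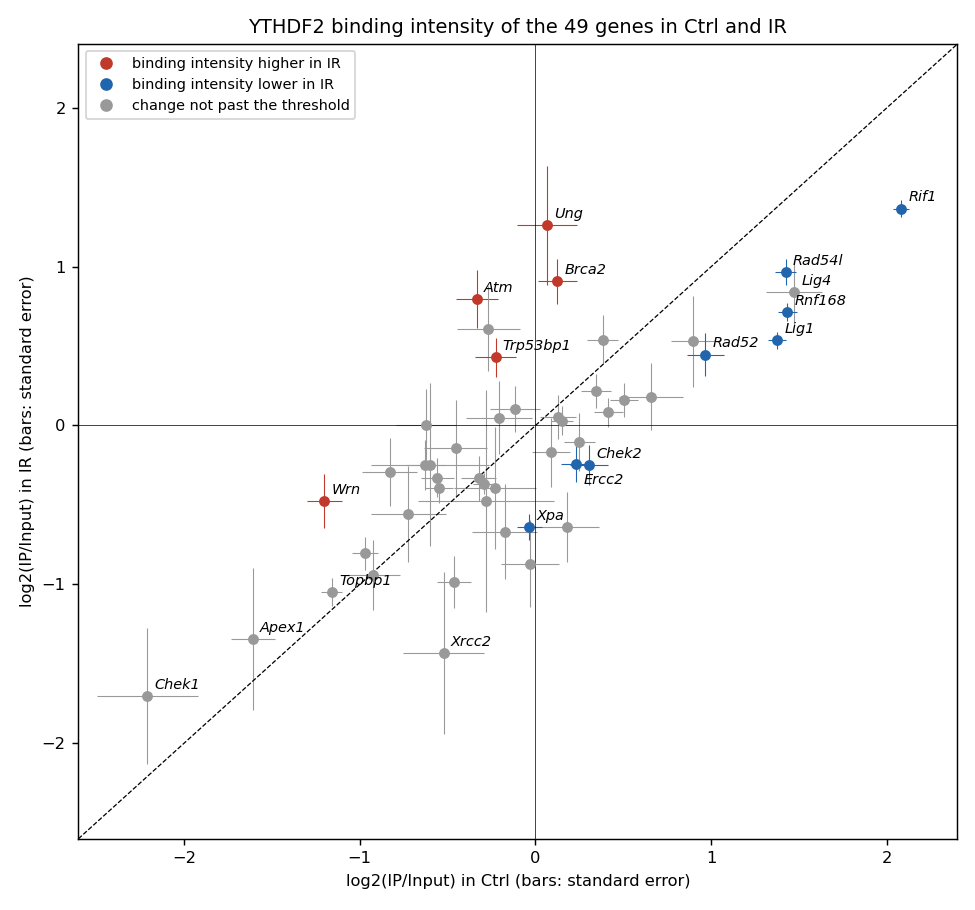
Binding intensity, log2(IP/Input), of the 49 genes in Ctrl (horizontal axis) and IR (vertical axis), with standard errors as bars and a dashed line of equal values. The 5 red genes above the line had a higher binding intensity in IR and the 8 blue genes below it a lower one at an adjusted p below 0.05, and Rif1 lies farthest to the upper right and Chek1 farthest to the lower left.

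Atm had 11.4, 12.7 and 11.03 CPM in the Ctrl IPs and 10.46, 12.5 and 10.3 CPM in the IR IPs, so its level in the IP overlapped between conditions (log2 change -0.07 ± 0.19) while its Input level fell as given above. With 0.5 CPM added to each level, its log2(IP/Input) was -0.46, -0.31 and -0.43 in the Ctrl pools and 0.55, 1.01 and 0.54 in the IR pools. Every Ctrl pool was below 0 and every IR pool above it, and the interaction was 1.15 ± 0.21 (edgeR adjusted p = 0.000395). It was the only 1 of the 49 genes lower in the IP than in the Input in Ctrl (-0.33 ± 0.12, edgeR adjusted p = 0.0214) and higher in IR (0.80 ± 0.18, edgeR adjusted p = 0.00283), although the Ctrl call was lost without replicate 1 or 3 (-0.28 and -0.30).

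Ung had 8.74, 11.7 and 8.27 CPM in the Ctrl IPs and 4.72, 2.90 and 4.65 CPM in the IR IPs. Its binding intensity in IR was 1.26 ± 0.37 (edgeR adjusted p = 0.0126), a call that was lost without replicate 1 (0.997). Its log2(IP/Input) was -0.22, 0.52 and -0.36 in the Ctrl pools and 1.61, 0.55 and 0.89 in the IR pools. The lowest IR pool was just above the highest Ctrl pool, and the interaction of 1.22 ± 0.36 (edgeR adjusted p = 0.0206) was no longer past the threshold without replicate 1 (0.81) or 3 (1.19). Brca2 had 16.6, 16.4 and 15.1 CPM in the Ctrl IPs and 18.8, 22.4 and 23.6 CPM in the IR IPs. Its log2(IP/Input) was 0.03, 0.09 and 0.02 in Ctrl and 0.57, 0.88 and 1.02 in IR, with no overlap. The interaction was 0.80 ± 0.18 (edgeR adjusted p = 0.00235), and the binding intensity in IR was 0.91 ± 0.14 (edgeR adjusted p = 0.000209) after 0.12 ± 0.11 in Ctrl.

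Trp53bp1 had 20.0, 15.2 and 19.6 CPM in the Ctrl IPs and 24.8, 23.5 and 22.5 CPM in the IR IPs. Its interaction of 0.68 ± 0.18 (edgeR adjusted p = 0.00926) came down to 0.48 without replicate 2 and lost the threshold, and its exons overlap Tubgcp4 on the opposite strand over 15.04% of their length. Wrn, the helicase mutated in Werner syndrome, had 29.1, 29.6 and 32.2 CPM in the Ctrl Inputs and 12.8, 12.7 and 11.96 CPM in the Ctrl IPs, a log2(IP/Input) of -1.20 ± 0.10 (edgeR adjusted p = 6.82e-09). In IR its Inputs were at 23.8, 25.2 and 23.6 CPM and its IPs at 21.7, 14.4 and 14.3 CPM, with pool 1 above the other pools of the IP. The transcript was depleted in both conditions, less so in IR (interaction 0.75 ± 0.20, edgeR adjusted p = 0.00966). That call was lost without replicate 3.

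Lig1 showed the largest fall in binding intensity by the naming rule. It had 121, 112 and 112 CPM in the Ctrl Inputs, 128, 122 and 124 CPM in the IR Inputs, 271, 283 and 297 CPM in the Ctrl IPs and 171, 171 and 180 CPM in the IR IPs. Its log2(IP/Input) was 1.16, 1.33 and 1.40 in the Ctrl pools and 0.42, 0.49 and 0.54 in the IR pools. The pools did not overlap and the interaction was -0.82 ± 0.07 (edgeR adjusted p = 7.55e-08). Rnf168 had 79.8, 80.9 and 79.0 CPM in the IR Inputs and 128, 129 and 121 CPM in the IR IPs. Its log2(IP/Input) was 1.27, 1.42 and 1.36 in Ctrl and 0.68, 0.67 and 0.62 in IR, and the interaction was -0.70 ± 0.08 (edgeR adjusted p = 1.92e-06). For Rif1 these values were 1.97, 2.05 and 1.97 in Ctrl and 1.35, 1.28 and 1.28 in IR, and the interaction was -0.69 ± 0.07 (edgeR adjusted p = 1.91e-07). In none of these 3 genes did the pools overlap, and all 3 stayed enriched in the IP after IR. The interaction calls of Atm, Brca2, Lig1, Rnf168 and Rif1 stayed past the threshold under every alternative scaling, filter, tool and left-out replicate.

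Xpa had 39.0, 38.9 and 40.3 CPM in the Ctrl IPs and 35.2, 36.4 and 33.2 CPM in the IR IPs, and its log2(IP/Input) was -0.03 ± 0.07 in Ctrl and -0.64 ± 0.08 in IR (edgeR adjusted p = 4.56e-05). The interaction was -0.58 ± 0.11 (edgeR adjusted p = 0.000475), and -0.27 with library size only, which did not pass the threshold. Chek2 had 21.2, 22.8 and 19.4 CPM in the Ctrl IPs and 25.1, 19.4 and 21.3 CPM in the IR IPs. Its interaction of -0.53 ± 0.17 (edgeR adjusted p = 0.0311) was lost with any 1 replicate left out. The interaction of Rad52 (-0.50 ± 0.17, edgeR adjusted p = 0.0433) and of Ercc2 (-0.45 ± 0.14, edgeR adjusted p = 0.0304) was lost in the same way, that of Rad52 also with the replicate block (adjusted p = 0.0843). Rad54l, at -0.44 ± 0.10 (edgeR adjusted p = 0.00441), lost its call without replicate 1 or 3 (-0.29 and -0.38). The exons of Ercc2 overlap Klc3 and Gm26852 on the opposite strand over 42.4% of their length.

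**Figure D4:**
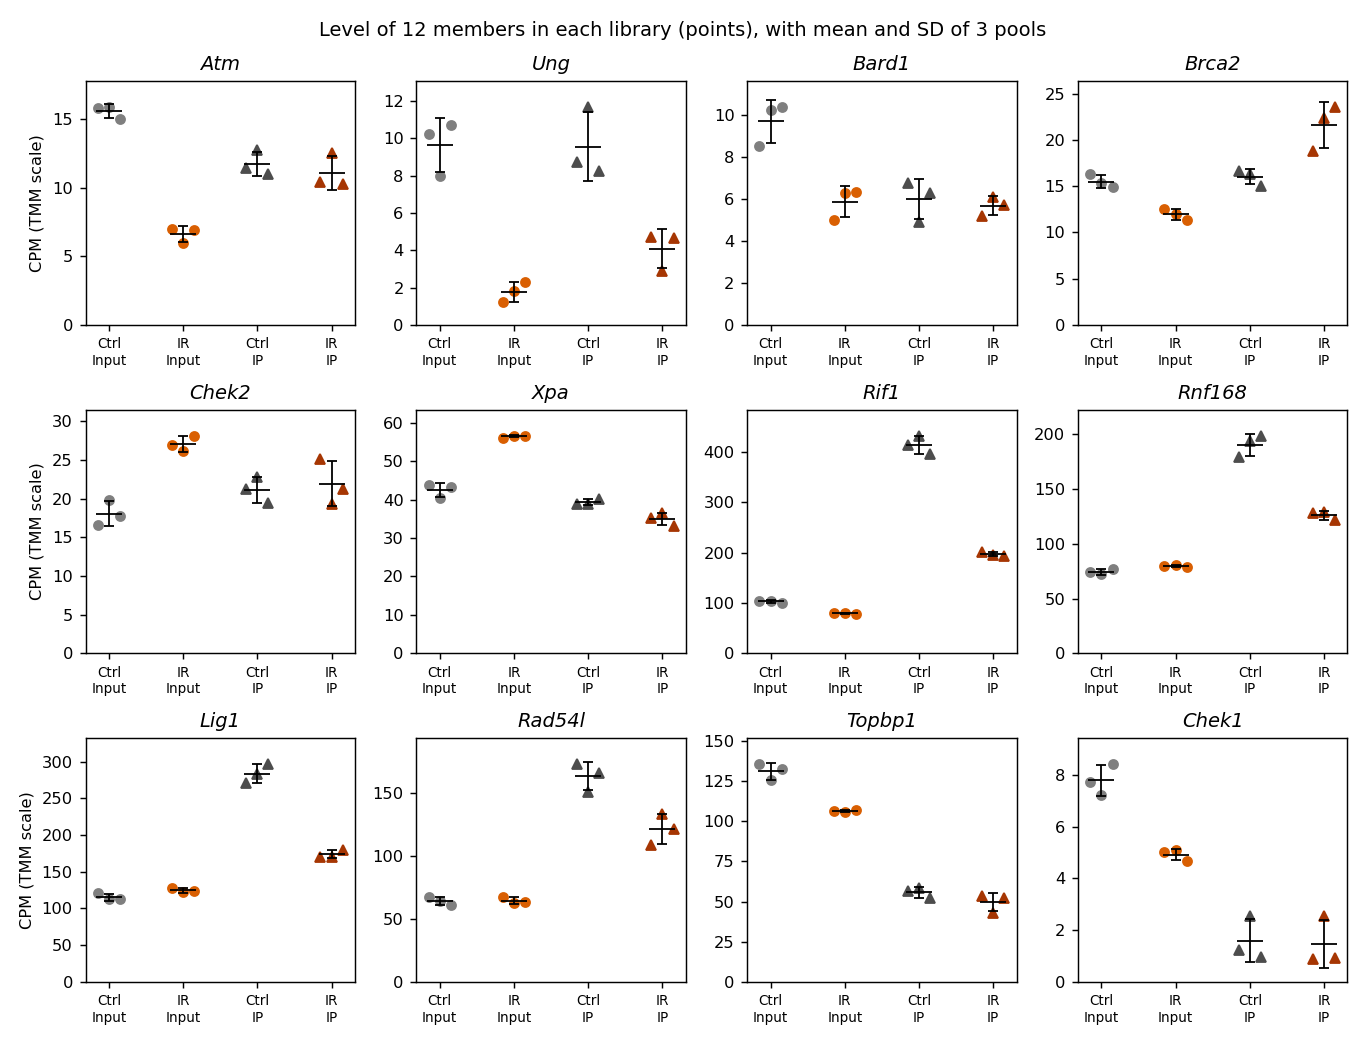
Level in CPM on the TMM scale of 12 members in each of the 12 libraries (circles for Input, triangles for IP), with the mean and SD of 3 pools as black bars and each axis starting at 0. Atm and Ung fell in the IR Inputs, Rif1, Rnf168, Lig1 and Rad54l stood higher in the IPs than in the Inputs and lower in the IR IPs than in the Ctrl IPs, and Topbp1 and Chek1 stood lower in the IPs.

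Finally the IPs of both conditions were compared directly. Of the 49 genes 9 were lower in the IR IPs and none was higher, beside 9.85% and 6.12% of the 19255 genes tested, and the median log2 change was -0.19 against 0.06 over all genes. Among the expressed protein-coding genes 17.05% were lower and 7.19% higher, with a median of -0.07, so the 18.4% of members that were lower stood near that share. At an unadjusted p below 0.05 edgeR gave 3 higher, Brca2, Wrn and Trp53bp1, and 12 lower. DESeq2 called 1 higher at the adjusted threshold, beside 9.15% of the 19255 genes tested. With library size only 3 were higher and 5 lower, beside 13.8% and 4.3% of all genes tested. With all 12 libraries in 1 fit 3 were higher and 13 lower, beside 10.26% and 14.25%. Ung fell by 1.22 on the log2 scale (SE 0.28, edgeR adjusted p = 0.00641), a call that was lost without replicate 2 (-0.82). For Rif1 the change was -1.06 ± 0.06 (edgeR adjusted p = 1.38e-09), with all IR IPs at less than any Ctrl IP. Xrcc6 had a change of -0.85 ± 0.21 (edgeR adjusted p = 0.00985), which was -0.55 and not past the threshold without replicate 2. The other genes that were lower were Lig1 (-0.70), Rnf168 (-0.58), Nbn (-0.49), Ercc2 (-0.44), Rad54l (-0.42) and Clspn (-0.37), of which Nbn, Ercc2 and Clspn lost the call with any 1 replicate left out. By role, 3 of 8 break marking genes, 2 of 9 base excision genes and 1 gene each of the kinases, recombination, end joining and nucleotide excision groups were lower.

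The transcripts of the 49 genes have long coding sequences and short 3′ untranslated regions. Among the 48 genes with a complete coding model, 1 transcript per gene, the median coding length was 2290 bases and the median 3′ untranslated length 428.5 bases, against 1425 and 968.5 bases in 10232 expressed protein-coding genes. The letters GGACT, 1 form of the m6A consensus, occurred 0.96 times per kb of transcript in the members and 1.05 times per kb in the expressed genes. Ung had no such match in its transcript and Rif1 had 8. Across genes, which are not independent replicates and share the libraries, the Input change and transcript length had a Spearman correlation of -0.32 over the 48 members and -0.32 over 10635 expressed genes. The Input change and the number of GGACT matches per kb had a correlation of 0.38 over the members and 0.05 over the expressed genes. For log2(IP/Input) and transcript length the correlation was 0.02 over the members and 0.26 over the expressed genes in Ctrl, and 0.29 and 0.43 in IR. The part of length or of these letters in the changes of the members was not tested.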

How the data were processed

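The data were 12 RIP-seq libraries, grouped by condition (Ctrl or IR), fraction (Input or YTHDF2 IP) and pool from the sample titles and treatment labels. The authors trimmed reads with Trimmomatic 0.39, aligned them with HISAT 2.1.0 to mm10 with GENCODE M19, and deposited whole-number HTSeq counts per gene, not normalized. How the counting treated strand, and whether duplicates were removed, is not given in the sources used here. The antibody is from Aviva and the library kit for total RNA in the study's methods, but from Abcam and for polyadenylated RNA in the labels. Gene symbols came from GENCODE M21 (99.9% of identifiers matched).

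Genes that reached 10 counts in 3 or more of the libraries compared entered edgeR 4.0.16 (R 4.3.3, TMM, quasi-likelihood test), with Benjamini-Hochberg adjustment over all genes tested and a threshold of 0.05. Standard errors were derived from the F statistic (the size of the log2 change over the root of F). The main fit and the replicate block were tested on simulated counts with the same mean profile in every group and 200 genes changed 2-fold. Such counts cannot test the scaling where many genes differ between fractions, and the other steps were not simulated. The limit of 3 counts covers counting error only, since copies of 1 molecule cannot be told apart. The SE and SD also hold the spread between the libraries of a group. Under TMM a shift shared by most genes is not visible.

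Members and gene lists were chosen with earlier results of these data known. Values in every library are given for the 3 members with the largest change in each direction of each comparison (past the threshold, groups not overlapping, mean of at least 100 counts) and for Atm, Atr, Prkdc, Chek1, Chek2, Trp53bp1, Brca1, Brca2, Parp1, Xrcc5 and Xrcc6. Others were added after their values were seen. IP and Input of the same number were taken as parts of 1 lysate. The methods divide each lysate, but the labels do not state which libraries belong together. The ratios per pool rest on this pairing. Deviations from the group means correlated at -0.019 to 0.015 between IP and Input of the same number. Between Ctrl and IR libraries of the same number they correlated at 0.0012 to 0.024. The replicate block was an alternative, as were DESeq2 1.42.0, other scalings and filters, all 12 libraries in 1 fit, protein-coding nuclear genes, a 2-fold minimum, and each replicate left out. MeRIP-seq, single-cell and knockout data of the study were not analysed here. Promoters came from RefSeq.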

Additional observations from a re-analysis of the deposited data

Results flagged for a closer look

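The change of binding intensity between Ctrl and IR passed the test of the difference itself (interaction in edgeR, adjusted p below 0.05) for 13 of the 49 genes. Binding intensity was higher in IR for Ung by 1.22 on the log2 scale, Atm by 1.15, Brca2 by 0.80, Wrn by 0.75 and Trp53bp1 by 0.68. It was lower in IR for Lig1 (-0.82), Rnf168 (-0.70), Rif1 (-0.69), Xpa (-0.58), Chek2 (-0.53), Rad52 (-0.50), Ercc2 (-0.45) and Rad54l (-0.44). Of all genes tested, 6.28% were higher and 13.9% were lower in this comparison. Only the calls of Atm, Brca2, Lig1, Rnf168 and Rif1 held under every alternative scaling, filter, tool and left-out replicate. The 5 genes with a higher binding intensity were all lower in the IR Inputs. Of the 8 with a lower one, 3 were higher in the IR Inputs, 1 was lower and 4 were not called. In the IPs Ung itself fell by 1.22 and Atm changed by -0.07. These values share libraries and do not support each other.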

How the results depend on the processing

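Of the values of single genes under the alternatives, 2588 stayed on the same side of the threshold, of which 1056 past it kept their sign and 108 of those not past it changed sign. Another 226 lost the threshold, 75 gained it and 2 reversed. Both of these came with library size only. The binding intensity of Clspn in Ctrl lost its call (-0.033). The interaction of Rad50, not past the threshold at -0.05 in the main fit, passed it at 0.26. That scaling moved the median of all genes by 0.31 in the interaction.

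Counts of members that moved by over 1.5 times, as higher and lower, were as follows. Under a 2-fold minimum they were 0 and 2 in the Input, 5 and 4 for IP over Input in Ctrl, 2 and 4 in IR, 2 and 0 for the interaction, and 0 and 2 in the IP. Shares over all genes at that minimum were not computed. With library size only 10 were higher in the IP in Ctrl, the interaction gave 14 and 3, and the IP change 3 and 5. All 12 libraries in 1 fit gave 13 lower in the Input and 3 higher in the IP change. For that fit and for library size only, the shares over all genes are given above. The interaction gave 5 lower with DESeq2's size factors, with at least 10 counts in every library and with protein-coding nuclear genes. Of all genes tested in these settings 11.46%, 16.04% and 14.43% were lower. The IP change gave 1 higher with DESeq2, with at least 10 counts in every library and with protein-coding nuclear genes. There 9.15%, 9.87% and 8.75% of all genes tested were higher. With the replicate block the counts were 3 and 26 in the Input, 15 and 17 in Ctrl, 11 and 13 in IR, 5 and 9 for the interaction and 0 and 8 for the IP change. Of all genes tested, the block called 22.2% higher and 24.7% lower in the Input, and 32.7% and 34.1% in Ctrl. It called 29.9% and 30.6% in IR, 5.47% and 13.35% for the interaction, and 5.81% and 10.56% for the IP change.

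With each replicate left out, counts ran from 2 to 3 higher and 24 to 25 lower in the Input, 14 to 15 and 13 to 16 in Ctrl, 10 to 12 and 7 to 10 in IR, 3 to 4 and 4 to 6 for the interaction, and 0 and 4 to 6 for the IP change. Of all genes tested in those fits, 16.6% to 19.4% were higher and 19.6% to 22.25% lower in the Input. The shares were 30.7% to 31.5% and 32.8% to 33.8% in Ctrl, and 24.6% to 25.7% and 27.9% to 29.4% in IR. They were 4.44% to 5.375% and 9.46% to 10.87% for the interaction. For the IP change they were 3.31% to 4.42% and 6.44% to 7.96%. The causes of the differences between settings were not tested. Xrcc5, Chek1 in the IP and Rad51b rest on few reads, which limits what could be detected.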
